A study of Drosophila melanogaster with 48 samples.

Results

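The genes described here encode the machinery of oxidative phosphorylation, the respiratory chain and ATP synthase of the inner mitochondrial membrane. They were chosen by name: every gene whose current fly symbol begins with ND-, with COX and a digit, with UQCR-, with ATPsyn, or with SdhA to SdhD. Of 90 such symbols, 72 were read by a probe set that names no other gene, out of 11982 genes named on the array. They comprised 32 genes of complex I, 6 of complex II, 6 of complex III, 14 of complex IV and 14 of complex V. Among these 72, 21 have a symbol ending in L or in L and a digit, such as COX4L, and are called L genes here, and the other 51 are called subunit genes. The remaining 18 were not analysed here. Of these, COX1, COX2 and COX3 belong to the mitochondrial genome, and ATPsynG, COX6B and ND-AGGG were read only by probe sets that name a further gene.

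Respiration passes electrons through a series of protein complexes. Complex I (NADH dehydrogenase, ND- genes) and complex II (succinate dehydrogenase, Sdh genes) feed electrons into the chain, complex III (UQCR- genes) hands them to cytochrome c, and complex IV (cytochrome c oxidase, COX genes) passes them to oxygen. Complexes I, III and IV pump protons as they do so, and complex V (ATP synthase, ATPsyn genes) uses the returning protons to make ATP. Most subunits are encoded in the nucleus and imported into the mitochondrion, where they are assembled with the few subunits made there. In Drosophila several of these genes have a second copy, and such copies are often expressed in the testis.

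Each sample came from a study that expressed the Hox protein Ultrabithorax (Ubx), which sets the haltere apart from the wing, in developing Drosophila melanogaster wings. Every animal was w and carried the driver nabGal4NP3537 over Tub-Gal80ts together with 1 copy of either UAS-UbxIa (the Ubx line) or UAS-eGFP (the control line). The heat-sensitive Gal80 kept the driver off at 19 °C and released it after 16 h at 29 °C, so the transgene was active only in cells with nab driver activity, in whole wings that held other cells too. Wings of 15 to 20 animals were pooled for each sample, with 4 biological replicates of each line, stage and temperature, 12 groups and 48 arrays in all. Larvae were at the wandering stage of the last instar, staged by gut colour. Counted from puparium formation, prepupae were 12.5 h old at 19 °C and 6 h old at 29 °C. On the same count, pupae were 33.5 h old and 16 h old. The question at 29 °C was what Ubx changes; the same comparison at 19 °C shows the difference between the lines with the transgene off.

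Values are log2 signals, so a difference of 1 is a doubling, and all differences below are on the log2 scale. A gene was called changed in a comparison at a Benjamini-Hochberg adjusted p under 0.05 in limma, adjusted over all 18769 probe sets tested. Ubx itself was not analysed here, since no probe set used carries its name. Replicate arrays correlated at 0.995 or more across probe sets. Of 9 measured wing markers, all 9 had a mean signal more than 0.5 above the median of the array in each larval group. Summed fat body markers ranged from 7.08 to 12.63 over the 4 eGFP larval arrays at 29 °C, with replicate 3 the highest, and from 6.95 to 8.50 over the 4 Ubx arrays. In prepupal Ubx wings at 19 °C, replicate 1 had the lowest median of the 51 subunit genes, 10.15 against 10.25 to 10.30 in the other 3 arrays. Whole wings were measured, so fewer cells of a type and less RNA per cell cannot be told apart.

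Nearly all subunit genes gave a signal clear of the array median, and nearly all L genes did not. Of the 51 subunit genes, 49 had a group mean more than 0.5 above the array median in all 12 groups, including every measured subunit gene of complexes II, IV and V. The exceptions were ND-B8, a complex I accessory subunit gene, which reached that margin in 0 groups, and the complex III gene UQCR-11, which reached it in 2. No detection call was available, so whether a signal near the median lies above background was not tested. Signals of different probe sets are not comparable as transcript levels, and the order of genes in the plot is for display.

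Across the 12 groups the mean of a subunit gene moved over a range of 0.64 to 1.72, with a median range of 1.09. The spread between replicate arrays was far smaller, with a median SD of 0.05 within a group. ND-MLRQ of complex I had group means from 12.43 to 13.14, highest in larvae and lowest in pupae at 19 °C. SdhC, which encodes a membrane anchor of complex II, had group means from 9.61 to 10.84, also highest in larvae and lowest in pupae at 19 °C. Both ranges were wider than the spread between replicates. That spread lies within a set of arrays that share stage and temperature, and such sets appear to have been normalised separately. Array medians themselves ran from 4.19 to 4.78. The part of scaling in these ranges was not tested.

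**Figure D1:**
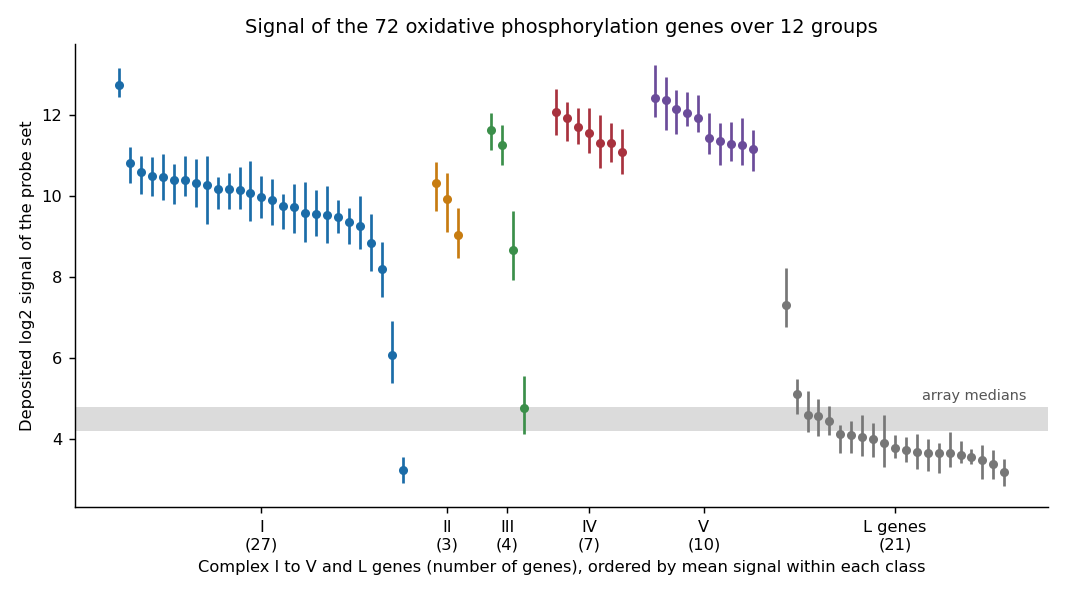
Deposited log2 signal of each gene's probe set (vertical axis) for the 27, 3, 4, 7 and 10 subunit genes of complexes I to V and the 21 L genes. Points are means of 48 arrays, bars run from the lowest to the highest of the 12 group means, and the grey band spans the array medians; most L genes lie in or under the band, and signals of different genes are not comparable as levels.

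Of the 21 L genes, 18 stayed within 0.5 of the array median or under it in all 12 groups. The 3 others were ATPsynepsilonL, above that margin in all 12 groups, ND-20L in 8 and COX7AL2 in 2. ATPsynepsilonL was highest in pupae at 19 °C, where the eGFP arrays read 8.37, 7.99, 8.08 and 8.03, against 7.06, 6.81, 7.13 and 6.85 in larvae at 19 °C. The pupal and larval arrays did not overlap. COX7AL2 was highest in larvae at 29 °C, where the eGFP arrays read 5.03, 5.25, 5.16 and 5.16.

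For 17 L genes the symbol without its L belongs to another gene that the name rule covers, and these 17 were ATPsynCF6L, ATPsynGL, ATPsynbetaL, COX4L, COX5BL, COX7AL, COX7AL2, ND-20L, ND-24L, ND-51L1, ND-51L2, ND-B14.5AL, SdhAL, SdhBL, SdhCL, UQCR-11L and UQCR-14L. In 13 of them the L gene and its namesake lie on different chromosome arms. COX5BL and COX5B are 2 protein-coding genes apart on arm 2L, and COX7AL and COX7A are 3 apart on arm 3R. The remaining L genes, ATPsynepsilonL, COX6AL, COX6AL2 and COX6CL, have namesakes whose symbols fall outside the rule and were added to this class after their values were seen.

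In larval wing discs at 29 °C the subunit genes were slightly lower with Ubx, but only 1 gene passed the test. The median difference of the 51 subunit genes was -0.07, with 45 of 51 below 0, while the median of all named genes was 0.00. Of the 72 genes 0 rose and 1 fell in limma, at a background of 1.39% of all probe sets called higher and 1.39% called lower. All 4 Ubx arrays lay below all 4 eGFP arrays for 18 of the 72 genes, and all 4 above for 1; over all probe sets, 4.56% had all 4 Ubx arrays lower and 4.29% all 4 higher. Genes of an array share that array, so these counts are not replicates.

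All 7 complex IV subunit genes were below 0 in larvae at 29 °C, from -0.16 to -0.08. At 19 °C all 7 were also below 0, from -0.07 to -0.01. The median of the 7 genes read 11.92, 11.90, 11.92 and 11.90 on the Ubx arrays and 11.99, 12.04, 12.04 and 11.96 on the eGFP arrays. The lines did not overlap on this median. The 10 complex V genes lay from -0.11 to 0.00 and the 27 complex I genes from -0.14 to 0.12.

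COX8, a small subunit gene of complex IV, was the called gene. Its Ubx arrays read 11.92, 11.95, 11.92 and 11.94 and its eGFP arrays 12.05, 12.04, 12.12 and 12.16. Every Ubx array was below every eGFP array. COX8 fell by 0.16 (SE 0.05, adjusted p = 0.0447 in limma), and on the linear scale it fell by 10.4%. The call was lost when any of the 4 Ubx arrays or eGFP replicate 3 or 4 was left out, and also with each array centred on its median (adjusted p = 0.122) or with the 8 larval arrays alone (adjusted p = 0.139). Without eGFP replicate 3, the array with the high fat body signal, the median of the 51 subunit genes was -0.07 and COX8 was not called (adjusted p = 0.144 in limma). In the same arrays the summed myoblast and muscle markers were 9.83 to 9.90 with Ubx and 9.64 to 9.79 with eGFP, and 0 of the 11 were called. Wing markers summed to 12.90 to 13.08 with Ubx and 13.17 to 13.28 with eGFP, without overlap, and 4 of the 9 were called lower. The part of these markers in the result was not tested.

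In prepupal wings at 29 °C, 13 genes fell with Ubx in the deposited values, most of them of ATP synthase and complex I, and 2 of these calls, both of complex I, held under all 3 scalings described below. Of the 72 genes 13 fell and 0 rose, so 18.1% of the genes were called lower, against a background of 6.21% of all probe sets called lower and 8.03% called higher. The 13 were all subunit genes: 6 of the 10 complex V genes, 5 of the 27 complex I genes, UQCR-6.4 of complex III and COX8 of complex IV. The falls were small, from 0.11 to 0.33. The median over the 51 subunit genes was -0.07, with 42 of 51 below 0, and the median of all named genes was 0.00. All 4 Ubx arrays lay below all 4 eGFP arrays for 19 of 72 genes, compared with 7.05% of all probe sets.

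ATPsynbeta, which encodes the catalytic subunit of ATP synthase, had the largest fall among the genes called. Its prepupal Ubx arrays read 11.69, 12.02, 11.93 and 11.79 and its eGFP arrays 12.12, 12.26, 12.24 and 12.14. The highest Ubx array was below the lowest eGFP array. ATPsynbeta fell by 0.33 (SE 0.10, adjusted p = 0.0157 in limma), and on the linear scale it fell by 20.6%. At 19 °C, with the transgene off, ATPsynbeta differed by -0.14 between the lines (adjusted p = 0.652). A second probe set of ATPsynbeta differed by -0.02 (adjusted p = 0.873), so the 2 probe sets disagree in call.

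The other complex V genes called lower cover several parts of the enzyme. Of the 10 complex V genes 0 were called lower under all 3 scalings, as each of the 6 calls was lost after quantile normalisation or centring, with the difference still below 0. ATPsyndelta, of the central stalk, fell by 0.16 (SE 0.04, adjusted p = 0.00897 in limma). ATPsynCF6, ATPsynD and ATPsynO, all of the peripheral stalk, fell by 0.16, 0.14 and 0.11. ATPsynE, which encodes subunit e of the membrane part, read 11.58, 11.53, 11.55 and 11.61 with Ubx and 11.68, 11.70, 11.63 and 11.73 with eGFP. The lines did not overlap, and ATPsynE fell by 0.11 (SE 0.04, adjusted p = 0.0261 in limma). ATPsynC, which encodes the subunit of the rotor ring, was at 12.07 to 12.11 with Ubx and 12.10 to 12.14 with eGFP and was not called.

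Among complex I genes, ND-18, ND-39, ND-13A, ND-13B and ND-PDSW were called lower, all of them genes of accessory subunits, which surround the catalytic core. ND-18 read 9.26, 9.47, 9.26 and 9.41 with Ubx and 9.61, 9.52, 9.58 and 9.52 with eGFP. Each Ubx array was below each eGFP array. ND-18 fell by 0.21 (SE 0.05, adjusted p = 0.00339 in limma), and on the linear scale it fell by 13.5%. Of the 13 genes it alone was called whichever single array was left out, but it was not called with the 8 arrays of the comparison alone (adjusted p = 0.0606 in limma). ND-39 read 10.15, 10.25, 10.09 and 10.08 with Ubx and 10.38, 10.34, 10.39 and 10.27 with eGFP, and fell by 0.20 (SE 0.06, adjusted p = 0.0167 in limma). For ND-13A the lines overlapped, at 9.61 to 9.88 with Ubx and 9.87 to 10.06 with eGFP. ND-B17, also of complex I, differed by 0.05 and was not called (adjusted p = 0.649 in limma). Its second probe set was called higher, by 0.13 (adjusted p = 0.0373 in limma), so the 2 disagree in call. In complex IV, COX8 fell by 0.14 (adjusted p = 0.0262 in limma), with arrays that overlapped, at 11.35 to 11.50 and 11.48 to 11.62.

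The number of prepupal calls was not stable. ND-18 and ND-39 were called with the deposited values, after quantile normalisation over all 48 arrays and after centring each array on its median. The number was 3 with each array centred on its median, and 3 with the 8 arrays of the comparison alone. It was 4 without Ubx replicate 3, 6 without eGFP replicate 1 or 4, 7 without Ubx replicate 1 or eGFP replicate 2, and 8 without Ubx replicate 4. The median over the 51 subunit genes stayed between -0.08 and -0.05 whichever of the 8 arrays was left out. Over the same arrays, haemocyte markers (11 measured) summed to 10.35 to 10.56 with Ubx and 10.19 to 10.28 with eGFP. In prepupae at 19 °C, with the transgene off, these sums were 9.99 to 10.21 and 9.76 to 9.96. Myoblast and muscle markers (11 measured) summed at 29 °C to 8.71 to 8.92 with Ubx and 8.96 to 9.06 with eGFP. Of these 11, 1 was called higher and 1 lower, with a median difference of 0.01. Group means of bt were 6.35 with Ubx and 7.49 with eGFP, and those of zfh1 were 7.49 and 7.01. Wing markers (9 measured) summed to 12.39 to 12.61 with Ubx and 12.54 to 12.67 with eGFP. Of the 9, 6 were called lower and 1 higher, with a median difference of -0.21. The part of these cell types in the falls was not tested.

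**Figure D2:**
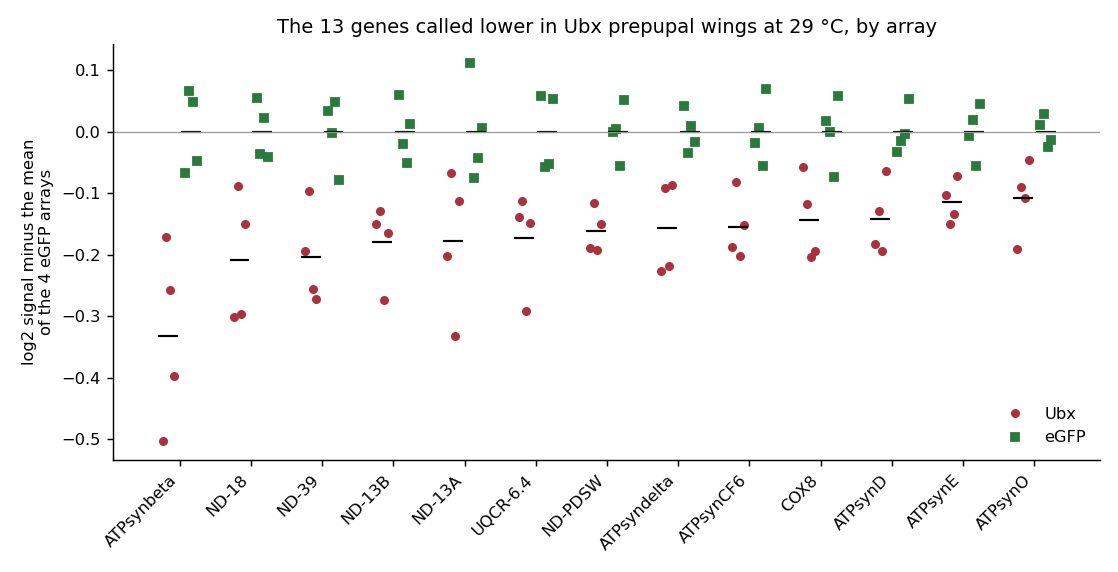
Each array's log2 signal minus the mean of the 4 eGFP arrays (vertical axis) for the 13 genes called lower in Ubx prepupal wings at 29 °C, with Ubx arrays as circles, eGFP arrays as squares and group means as bars. The 4 Ubx arrays of ATPsynbeta and of ND-18 lie below all 4 eGFP arrays, while those of COX8 and ND-13A overlap with them.

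In pupal wings at 29 °C the differences of the subunit genes lay around 0. Of the 72 genes 0 rose and 0 fell in limma, against 4.36% and 4.53% of all probe sets. The 51 subunit genes had a median of 0.00 and lay from -0.10 to 0.14. ATPsynbeta read 11.74 to 11.90 with Ubx and 11.53 to 12.06 with eGFP, and ND-18 read 9.10 to 9.24 and 9.08 to 9.25. For both genes the lines overlapped. The quantile normalisation called 2 genes higher and 1 lower, and centring called 1 lower. As in prepupae, the 2 probe sets of ND-B17 disagree in call. The one used differed by 0.04 (adjusted p = 0.754 in limma) and the second was higher by 0.15 (adjusted p = 0.0334 in limma).

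With the transgene off at 19 °C, few genes differed between the lines. In larvae 0 of 72 were called higher and 0 lower in limma, against 0.767% and 0.639% of all probe sets. In prepupae 1 was higher and 1 lower, against 1.57% and 2.1%, and in pupae 0 were higher and 1 lower, against 0.986% and 1.01%. The medians of the 51 subunit genes were -0.01 at each of the 3 stages.

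The prepupal genes at 19 °C were ND-B14 and ATPsynCF6. ND-B14, a complex I accessory subunit gene, read 9.89, 10.14, 10.04 and 10.00 with Ubx and 9.82, 9.80, 9.73 and 9.62 with eGFP, without overlap. It was higher by 0.28 (SE 0.05, adjusted p = 0.000444 in limma), a call made whichever of the 8 arrays was left out but not with the 8 arrays alone (adjusted p = 0.0776). ATPsynCF6 read 11.35, 11.58, 11.47 and 11.57 with Ubx and 11.66, 11.73, 11.67 and 11.73 with eGFP. It was lower by 0.20 (SE 0.05, adjusted p = 0.0187 in limma), beside a difference of -0.16 in prepupae at 29 °C. The ATPsynCF6 call at 19 °C was lost without Ubx replicate 1 or 3 or eGFP replicate 4, after quantile normalisation (adjusted p = 0.153) and with the 8 arrays alone (adjusted p = 0.183).

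In pupae at 19 °C the called gene was ND-15, of complex I. It read 10.13, 10.16, 10.21 and 10.24 with Ubx and 10.51, 10.29, 10.39 and 10.42 with eGFP, with each Ubx array below each eGFP array. ND-15 was lower by 0.22 (SE 0.05, adjusted p = 0.0129 in limma), and it was not called without replicate 1 of either line or with the 8 arrays alone (adjusted p = 0.222).

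**Figure D3:**
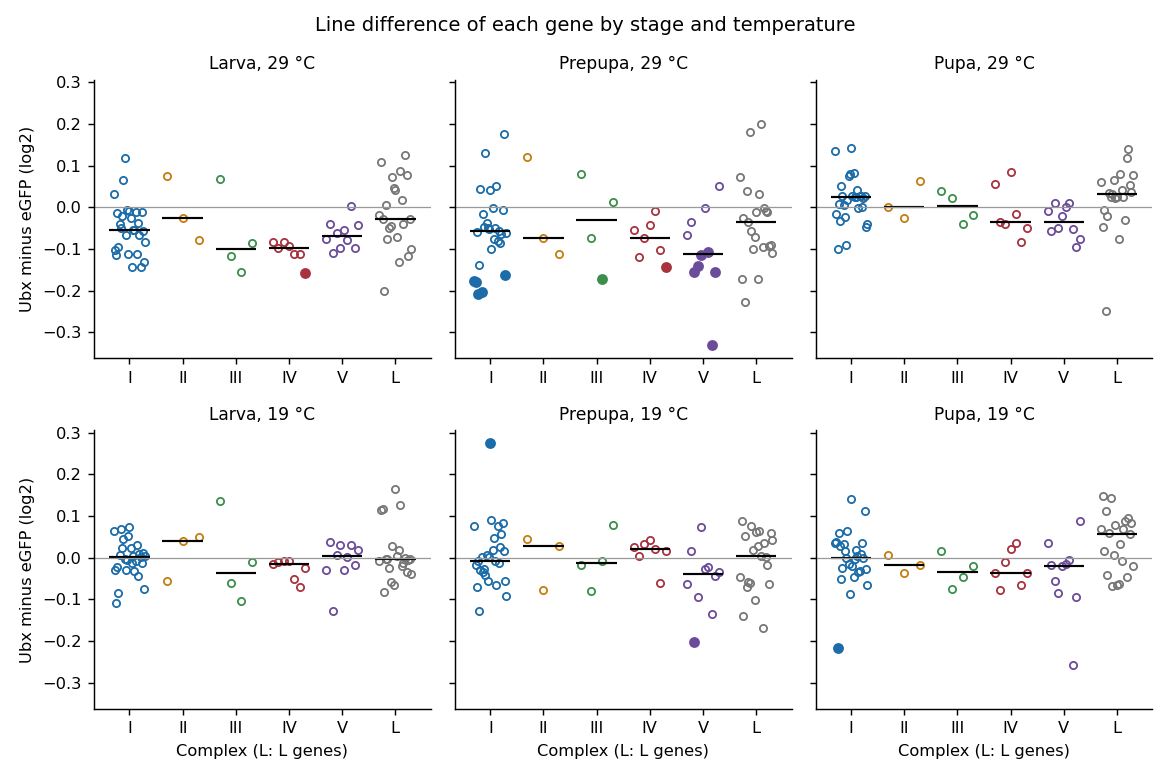
Ubx minus eGFP difference (log2, vertical axis) of each gene, grouped by complex I to V and the L genes, at 3 stages and both temperatures. Filled points are genes called in limma, open points are not called and bars are class medians; most larval and prepupal subunit genes at 29 °C lie below 0, and the points at 19 °C and in pupae scatter around it.

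The difference between the lines at 29 °C was then compared with that at 19 °C by the interaction of line with temperature, which shares its arrays with the comparisons above. In larvae 0 of 72 genes were called in either direction in limma, against 0.176% of all probe sets higher and 0.266% lower. In pupae 0 were called in either direction, against 1.44% and 1.91%. In prepupae 0 were higher and 3 lower, against 4.69% and 3.0%.

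These 3 prepupal genes were ND-13A, ND-B14 and ATPsynE. The interaction of ND-13A was -0.25 (SE 0.07, adjusted p = 0.0185 in limma), made of a difference of 0.08 at 19 °C and -0.18 at 29 °C. For ND-B14 it was -0.23 (SE 0.07, adjusted p = 0.042 in limma), made of 0.28 at 19 °C and 0.04 at 29 °C, so the difference at the lower temperature carries it. For ATPsynE it was -0.19 (SE 0.05, adjusted p = 0.0146 in limma), made of 0.07 and -0.11. Centring the arrays or fitting only the arrays of the comparison left 0 calls. Leaving out Ubx replicate 1 at 19 °C raised the count to 8, and leaving out Ubx replicate 3 or eGFP replicate 1 at 29 °C reduced it to 1. Of the 13 prepupal genes lower at 29 °C, ND-13A and ATPsynE were thus called in the interaction, while ATPsynbeta (interaction -0.20, adjusted p = 0.513 in limma) and ND-18 (interaction -0.20, adjusted p = 0.0924 in limma) were not.

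Stages and temperatures were compared in the eGFP line. The deposited values appear to have been normalised separately for each stage and temperature, so in these comparisons the set of arrays and the condition cannot be told apart. Under other scalings the median of all genes moved by up to 0.41, and genes are therefore read against that median and named as changed where the call held in the same direction under 3 scalings, the deposited values, a quantile normalisation over all 48 arrays and centring on array medians.

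From larval disc to prepupal wing, genes of complexes IV and V fell. Under all 3 scalings 7 of 7 complex IV genes and 9 of 10 complex V genes fell at each temperature. In complex I 9 of 27 fell at 19 °C, a share not above that of all probe sets given below, and 12 at 29 °C. In complex III 1 and 3 of 4 fell and 1 rose at each temperature, and in complex II 0 of 3 were called. At 19 °C the median of the 51 subunit genes was -0.61, against -0.33 for all named genes, and at 29 °C it was -0.43 against -0.08. After quantile normalisation these were -0.13 against -0.03 and -0.25 against -0.05, and 13 and 9 of the 51 were called higher. Under all 3 scalings 26 of the 51 fell at 19 °C and 31 at 29 °C, and 1 rose at each temperature. Over all 72 genes 30 and 33 fell, or 5 and 3 rose, at backgrounds of 35.7% of all probe sets lower and 16.4% higher at 19 °C, and 29.4% and 16.5% at 29 °C. The arrays at 19 °C and 29 °C are not shared, and 23 genes fell at both, which is 23 of 26 and 23 of 31. They included all 7 complex IV genes and 9 of the 10 complex V genes, ATPsynCF6 being the exception. The share of all probe sets that fell at both temperatures was not counted, so the 23 stand without a background. Across the 51 genes the changes at the 2 temperatures had a Pearson r of 0.76 and a Spearman rho of 0.63, a description across genes that share their arrays.

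The largest falls at 19 °C were those of ND-ACP and ND-B12. ND-ACP encodes the mitochondrial acyl carrier protein, which is also a subunit of complex I. Its larval eGFP arrays at 19 °C read 10.88, 10.78, 10.90 and 10.88 and its prepupal arrays 9.48, 9.39, 9.35 and 9.29. The stages were clearly apart, and ND-ACP fell by 1.48 (SE 0.06, adjusted p = 1.70e-26 in limma), and by 1.03 at 29 °C. Its other 2 probe sets changed by -1.11 and -1.25 at 19 °C.

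ND-B12, a complex I accessory subunit gene, read 6.86, 6.84, 6.96 and 6.77 in larvae and 5.47, 5.44, 5.42 and 5.20 in prepupae at 19 °C. It fell by 1.48 (SE 0.07, adjusted p = 2.49e-23 in limma), and by 1.16 at 29 °C. UQCR-Q of complex III fell by 1.15 and 1.02. Falls of 0.87 and 0.56 were found for ATPsynC, which read 13.15 to 13.23 in larvae and 12.25 to 12.36 in prepupae at 19 °C.

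UQCR-11 was the subunit gene that rose at both temperatures, with a signal less than 0.5 above the array median in 10 of the 12 groups. At 19 °C it read 4.94 to 5.12 in larvae and 5.42 to 5.73 in prepupae, and it rose by 0.54 (SE 0.11, adjusted p = 2.61e-05 in limma). Among L genes, COX4L rose by 0.58 at 19 °C, from 3.84 to 4.22 in larvae to 4.42 to 4.82 in prepupae, and differed by -0.06 at 29 °C (adjusted p = 0.546). COX6CL rose by 0.53 at 29 °C. The signal of COX6CL stayed within 0.5 of the array median or under it, as did that of COX4L.

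From prepupa to pupa the sign of the median change of the subunit genes depended on the scaling. Under each of the 3 scalings this median lay below that of all named genes. Their median was -0.37 at 19 °C, against -0.27 for all named genes, and -0.23 at 29 °C, against -0.19. With each array centred on its median both medians changed sign, to 0.043 at 19 °C and 0.16 at 29 °C. Those of all named genes were then 0.14 and 0.20. After quantile normalisation the subunit medians were -0.07 against 0.01 for all named genes at 19 °C and -0.13 against 0.01 at 29 °C. No sign is therefore given for the group, and its position below all named genes was not tested. Under all 3 scalings 12 of the 51 were lower and 4 higher at 19 °C, and 5 lower and 2 higher at 29 °C. Over all 72 genes the counts were 20 lower and 6 higher, then 7 lower and 3 higher, against 24.5% of all probe sets lower and 22.8% higher at 19 °C and 22.2% and 23.5% at 29 °C. Fat body markers (4 measured) summed to 7.82 to 9.07 in prepupal and 12.85 to 13.46 in pupal eGFP arrays at 19 °C. At 29 °C these sums were 8.41 to 9.24 and 13.36 to 14.08. All 4 were called higher under all 3 scalings at both temperatures. The part of fat body in the pupal results was not tested.

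The genes that fell at both temperatures were ND-20, ND-75, ND-MNLL and ATPsynCF6, and those that rose at both were ND-ACP and ND-B12. ND-75 and ND-20 belong to the core of complex I that carries the iron-sulphur clusters. ND-75 read 8.03, 7.99, 8.44 and 8.30 in prepupae and 7.42, 7.64, 7.40 and 7.51 in pupae at 19 °C, and fell by 0.70 there and by 0.71 at 29 °C. ND-MNLL fell by 0.66 at 19 °C and by 1.12 at 29 °C (SE 0.06, adjusted p = 4.69e-20 in limma), where it went from 10.73 to 10.87 in prepupae to 9.61 to 9.73 in pupae.

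ND-B12 read 6.19, 6.10, 6.44 and 6.29 in pupae at 19 °C, between its prepupal and larval arrays. It rose by 0.87 from prepupa to pupa at 19 °C (SE 0.07, adjusted p = 3.17e-15 in limma) and by 0.45 at 29 °C. ND-ACP rose by 0.41 and 0.27, and its 3 probe sets disagree at 29 °C, where another one differed by -0.13 (adjusted p = 0.0559 in limma). These rises and the falls before them share the prepupal arrays. ATPsynepsilonL rose by 0.73 at 19 °C and 0.63 at 29 °C. At 19 °C UQCR-11 fell by 1.15 and COX4L by 0.94, and at 29 °C COX6CL fell by 0.87, each with a signal near or below the array median.

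**Figure D4:**
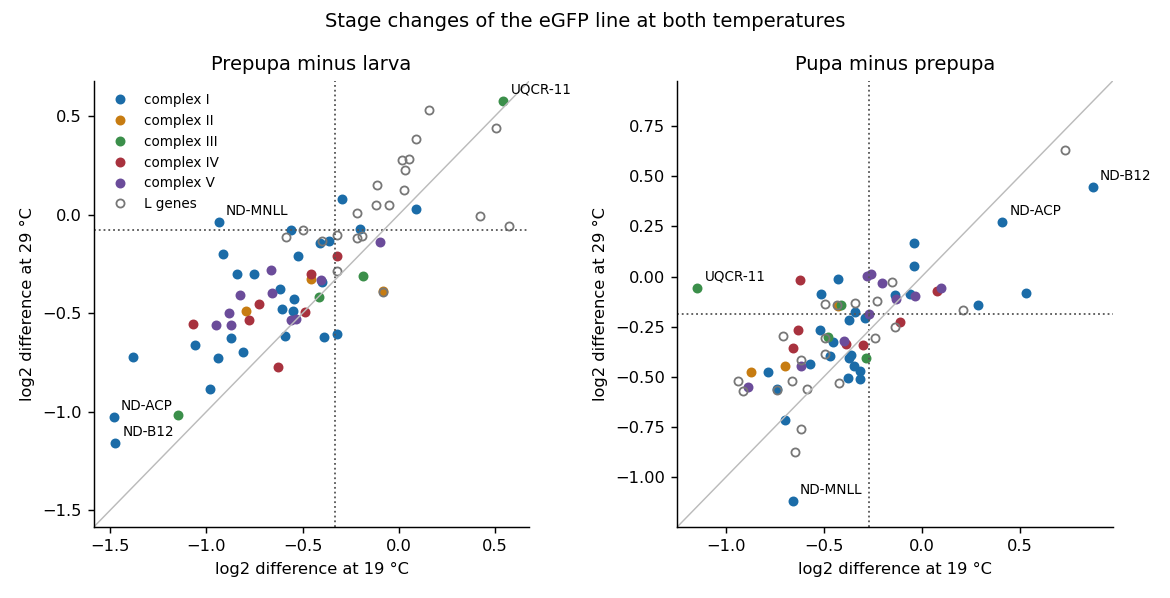
Change between stages in the eGFP line at 29 °C (vertical axis, log2) against that at 19 °C (horizontal axis, log2), from larva to prepupa on the left and from prepupa to pupa on the right, with 1 point a gene. Dotted lines mark the median of all named genes and the grey line equal change; on the left most subunit genes lie below and to the left of the dotted lines, and on the right they lie around them.

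The temperature comparison asked how the eGFP line at 29 °C differed from that at 19 °C, where prepupae and pupae also differed in hours after puparium formation. Relative to the median of all genes, changes went in both directions and differed from gene to gene. The medians of the 51 subunit genes were -0.07 in larvae, 0.15 in prepupae and 0.22 in pupae, against -0.20, 0.11 and 0.18 for all named genes. These medians depended on the scaling: in larvae the sign turned, to 0.20 after quantile normalisation and 0.12 after centring. All named genes then stood at 0.01 and -0.01. In prepupae centring gave 0.019, against -0.02 for all named genes, and in pupae quantile normalisation gave 0.030, against 0.00. The subunit median lay above that of all named genes at each stage under all 3 scalings, by 0.03 to 0.19. No sign is therefore given for the group, and its position above all named genes was not tested. Under all 3 scalings 6 of the 72 genes were higher and 5 lower in larvae, against 4.4% and 14.6% of all probe sets. In prepupae the counts were 20 and 10, against 23.3% and 17.1%, and in pupae 18 and 7, against 15.3% and 5.62%. Complex I supplied 14 of the 20 prepupal genes that were higher.

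Among subunit genes, ND-19 was higher at 29 °C at all 3 stages and ATPsynC lower at all 3, in arrays that the stages do not share. ND-19 read 9.79, 9.75, 9.89 and 9.78 at 19 °C and 9.88, 10.02, 9.99 and 10.04 at 29 °C in larvae, where the highest array at 19 °C lay just above the lowest at 29 °C. The differences of ND-19 were 0.18, 0.28 and 0.49 in larvae, prepupae and pupae. ATPsynC read 13.20, 13.15, 13.16 and 13.23 in larvae at 19 °C and 12.66, 12.69, 12.67 and 12.68 at 29 °C, without overlap. It was lower by 0.51 in larvae (SE 0.03, adjusted p = 1.02e-15 in limma), by 0.19 in prepupae and by 0.17 in pupae.

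SdhD, which encodes a membrane anchor of complex II, was higher by 0.48 in larvae and by 0.57 in pupae (SE 0.06, adjusted p = 3.49e-10 in limma). In pupae it read 9.13, 9.01, 9.13 and 9.21 at 19 °C and 9.78, 9.71, 9.71 and 9.56 at 29 °C, without overlap. In prepupae the largest rises were those of ND-MNLL and ND-B14.5A, both of complex I. ND-MNLL read 10.06, 9.92, 9.97 and 9.93 at 19 °C and 10.82, 10.77, 10.73 and 10.87 at 29 °C, and was higher by 0.83 (SE 0.06, adjusted p = 3.31e-15 in limma). ND-B14.5A was higher by 0.63. In pupae ND-13B was higher by 0.54.

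Lower values at 29 °C were found for UQCR-11, by 0.89 in larvae and 0.86 in prepupae, and for ND-B12, by 0.35 in pupae. COX7AL2 was higher by 0.69 in larvae (SE 0.07, adjusted p = 3.70e-10 in limma), with 4.38 to 4.56 at 19 °C and 5.03 to 5.25 at 29 °C. COX4L was lower by 0.74 in prepupae and ATPsynepsilonL by 0.50 in pupae.

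**Figure D5:**
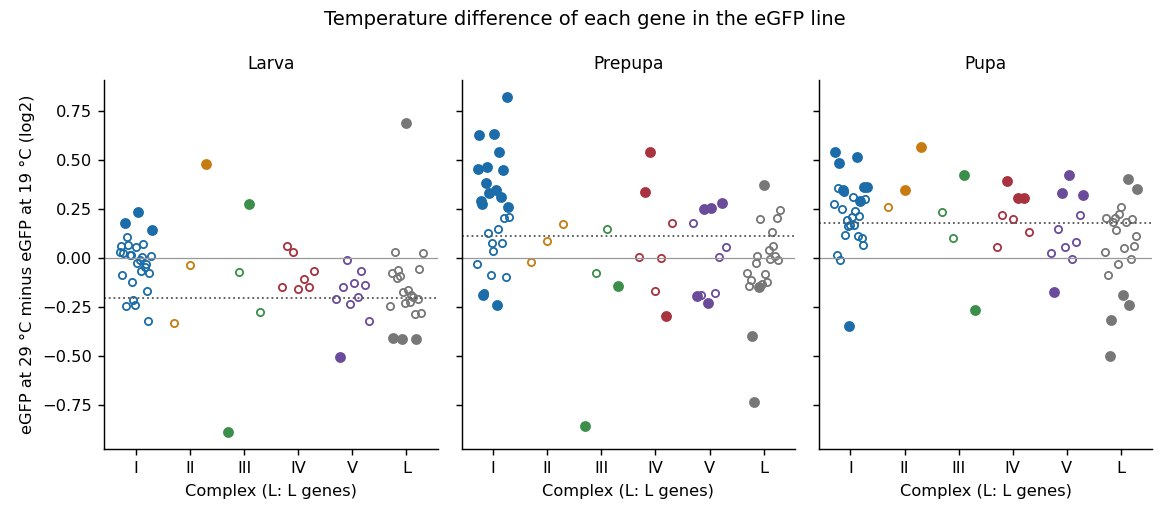
Difference of the eGFP line at 29 °C minus 19 °C (log2, vertical axis) of each gene, grouped by complex I to V and the L genes, in larvae, prepupae and pupae. Filled points are called in the same direction under all 3 scalings, and the dotted line is the median of all named genes; 14 complex I genes are filled above the line in prepupae.

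Genes that work with the respiratory chain were read from 6 further lists. Their counts with Ubx in prepupae at 29 °C stand against 6.21% of all probe sets called lower and 8.03% higher. Their counts under all 3 scalings from larva to prepupa stand against 35.7% lower and 16.4% higher at 19 °C and 29.4% and 16.5% at 29 °C, and nothing particular to a list is read from its few genes. Of other subunit genes of the chain, whose symbols fall outside the name rule, 6 of 19 were measured, and in prepupae at 29 °C 2 fell with Ubx and 0 rose. Both encode catalytic subunits of complex III. RFeSP, the Rieske iron-sulphur protein, had group means of 9.54 with Ubx and 9.78 with eGFP and fell by 0.24 (SE 0.05, adjusted p = 0.00123 in limma). Cyt-c1, cytochrome c1, had means of 10.29 and 10.49 and fell by 0.20 (SE 0.04, adjusted p = 0.00018 in limma), with an interaction of -0.26. At 19 °C the prepupal means were 9.33 with Ubx and 9.42 with eGFP for RFeSP, and 10.04 and 9.98 for Cyt-c1. In the prepupal interaction 1 of the 6 genes was called lower and 0 higher. From larva to prepupa 5 of the 6 fell under all 3 scalings at each temperature, and 0 rose.

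Of assembly factors, 8 measured of 11, 1 rose with Ubx in prepupae at 29 °C and 0 fell. The gene that rose was Taz, which encodes tafazzin, an enzyme that remodels the mitochondrial lipid cardiolipin. Taz rose by 0.58 in prepupae (SE 0.07, adjusted p = 2.15e-08 in limma), with an interaction of 0.47, and by 0.29 in pupae, where the lines already differed by 0.29 at 19 °C. From larva to prepupa the median of the 8 was -1.79 at 19 °C and -1.72 at 29 °C, and under all 3 scalings 6 fell and 1 rose at each temperature. Scox, a copper chaperone for complex IV, changed by -2.95 at 19 °C and -1.88 at 29 °C, and Bcs1, needed to insert the Rieske protein, by -2.35 at each temperature, while Sirup, a complex II assembly factor, rose by 4.05 and 3.82.

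Some genes of enzymes that feed the chain fell with Ubx in prepupae at 29 °C. Of 9 measured genes of 14 on the tricarboxylic acid cycle list, 3 fell and 0 rose. Ogdh, of the oxoglutarate dehydrogenase complex, fell by 0.62 (SE 0.06, adjusted p = 1.49e-11 in limma), ScsbetaG by 0.21 and muc by 0.19. These 3 calls held under all 3 scalings. At 19 °C, with the transgene off, 3 of the 9 were also called lower in prepupae and 0 higher, against 2.1% and 1.57% of all probe sets. Of those calls at 19 °C 0 held under all 3 scalings. The prepupal means of muc at 19 °C were 9.02 with Ubx and 9.14 with eGFP. Of 9 measured glycolysis genes of 12, 4 fell and 0 rose, led by Gapdh1 at -0.41, Tpi at -0.37 and Pglym78 at -0.25, and 3 of the 4 calls held under all 3 scalings. The interaction was called lower for Ogdh and ScsbetaG, and for Gapdh1, Tpi and Pglym78.

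Between stages, glycolysis genes changed in both directions. From larva to prepupa at 19 °C 7 of 9 rose and 1 fell under all 3 scalings, with Ald1, an aldolase, up by 2.13. From prepupa to pupa 8 fell and 1 rose, against 24.5% of all probe sets lower and 22.8% higher, with Ald1 changed by -4.41. At 29 °C 4 rose and 1 fell at the first step, with a median of 0.10 against 0.46 at 19 °C, and 0 rose and 6 fell at the second, where 22.2% of all probe sets fell and 23.5% rose. For the tricarboxylic acid cycle list 4 of 9 fell at the first step at 19 °C and 0 rose under all 3 scalings, with a median of -0.92.

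Genes of mitochondrial biogenesis and mitochondrial DNA upkeep, 12 measured of 16, had a median of -2.06 from larva to prepupa at 19 °C and -1.44 at 29 °C. Under all 3 scalings 8 of 12 fell and 0 rose at each temperature. The largest changes were those of mtSSB, the mitochondrial single-strand DNA binding protein, which fell by 3.50 at 19 °C, and clu, which fell by 3.16. With Ubx in prepupae at 29 °C, Pink1 and ewg rose by 0.32 and 0.23 and mtSSB fell by 0.19, of which 1 rise and 0 falls were called under all 3 scalings.

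Of carriers and import genes, 17 measured of 19, 1 rose and 5 fell with Ubx in prepupae at 29 °C, and 1 and 2 under all 3 scalings. The gene for porin, the channel of the outer membrane, rose by 0.30 (SE 0.04, adjusted p = 1.46e-08 in limma). Tom20, an import receptor, fell by 0.22 and Mpc1, of the pyruvate carrier, by 0.21. At 19 °C, with the transgene off, the prepupal means of porin were 11.90 with Ubx and 11.77 with eGFP. Those of Tom20 were 10.45 and 10.52, and those of Mpc1 9.24 and 9.37. In the prepupal interaction 1 of the 17 was called higher and 3 lower, against 4.69% and 3.0% of all probe sets. Tom70, another import receptor, was lower in the Ubx line by 0.45 in larvae and 0.66 in pupae at 29 °C and by 0.46 and 0.53 at 19 °C. From larva to prepupa at 19 °C 11 of 17 fell and 2 rose under all 3 scalings.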

How the data were processed

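Biotin-labelled RNA (2 µg per sample) was hybridised to Affymetrix Drosophila Genome 2.0 arrays. The deposited values are log2 signals made by the authors with RMA, per the submitters' processing notes; its version is not given in the sources used here, and base 2 was inferred because values ran from 2.37 to 14.6. Averaged over all quantiles, the range among the 8 arrays that share stage and temperature was at most 0.0645. Between such sets the mean quantiles differed on average by at least 0.115, so RMA appears to have been run per set. No detection calls were used.

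Of 18952 probe sets, 183 controls were left out and 18769 tested; 13647 had 1 gene symbol in GEO's annotation, 402 several and 4720 none. Symbols were checked against RefSeq names (Release 6 plus ISO1 MT). Where a gene had several probe sets, the brightest on average was used; 6 members had more than 1, and 11 had a probe set type that can match several transcripts.

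A mean for each of 12 groups was fitted in limma 3.58.1 (lmFit, eBayes; R 4.3.3) over all 48 arrays, with 36 residual and 5.16 prior degrees of freedom, two-sided tests and Benjamini-Hochberg adjustment. Each group had 4 arrays, which limits precision. The procedure was tested on simulated data. Python 3.11.15 with pandas 2.3.3 made the summaries. The members and gene lists were chosen with earlier results of these data known. Named were, by rule, the largest called changes of each comparison (up to 3 in each direction for Ubx at 29 °C and interactions, 2 otherwise), a gene per complex by signal and the L genes with a namesake; other genes named here were chosen after their values were seen. Replicate numbers did not pair the arrays. Alternatives were quantile normalisation, centring, the arrays of a comparison alone, a replicate block, a filter on dim probe sets, averaging the probe sets of a gene, a variance trend, and leaving out each array.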

Additional observations from a re-analysis of the deposited data

Results flagged for a closer look

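Of 137 sets of 4 arrays examined, 4 held an array far from the other 3, and chance gives about 1 in 20. ND-13A read 9.94 on replicate 1 of the prepupal Ubx arrays at 19 °C, the lowest of the 4. In prepupal eGFP arrays at 29 °C, replicate 4 was the highest for ND-B12, at 5.55, and for the median of the L genes, at 4.09. In pupal eGFP arrays at 29 °C, replicate 2 was the highest for the median of the complex IV genes, at 11.2. The difference between the lines changed with temperature in prepupae for ND-13A by -0.25, for ND-B14 by -0.23 and for ATPsynE by -0.19, by the interaction in limma. For ATPsynGL, all 4 prepupal Ubx arrays at 29 °C were lower than the eGFP arrays, with a difference of -0.17, and all 4 larval Ubx arrays at 19 °C were higher; the difference between these was not tested, and both signals lie near the array median.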

How the results depend on the processing

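Values are numbers of the 72 genes called higher or lower in limma. With each array centred on its median, Ubx minus eGFP at 29 °C gave 0 lower in larvae, 1 higher and 3 lower in prepupae, and 1 lower in pupae, and the prepupal interaction gave 0 lower. Centring gave 26 higher and 6 lower for larval temperature, 27 lower for prepupal temperature, 22 higher and 13 lower for pupal temperature, 3 higher from larva to prepupa at 29 °C, and, from prepupa to pupa, 25 higher and 22 lower at 19 °C and 34 higher and 8 lower at 29 °C. Under centring the median of the 51 subunit genes from prepupa to pupa reversed, to 0.043 at 19 °C and 0.16 at 29 °C. That of all named genes was then 0.14 and 0.20. Between scalings the median of all genes moved by up to 0.41.

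Quantile normalisation gave 5 lower in Ubx larvae at 29 °C, 2 higher and 1 lower in pupae at 29 °C and 0 lower in prepupae at 19 °C. It gave 34 higher and 5 lower for larval temperature, 18 higher and 13 lower for pupal temperature, 17 higher and 30 lower from larva to prepupa at 19 °C, and, from prepupa to pupa, 18 higher and 34 lower at 19 °C and 13 higher and 30 lower at 29 °C. With the arrays of a comparison alone, the Ubx comparison gave 0 lower in larvae and 3 lower in prepupae at 29 °C, 0 higher and 0 lower in prepupae and 0 lower in pupae at 19 °C, and the prepupal interaction 0 lower; this setting has fewer residual degrees of freedom. The filter on dim probe sets gave 1 higher in prepupae and 1 lower in pupae at 29 °C and 4 higher from larva to prepupa at 29 °C; averaging the probe sets of a gene and the variance trend each gave 1 higher in prepupae at 29 °C.

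The replicate block, whose numbers did not pair the arrays (24 pairs, correlations from -0.145 to 0.361, 7 over 0.1), gave 0 lower in Ubx larvae at 29 °C and 0 lower in the prepupal interaction, and moved no other count by over 1.5 times. Leaving out single arrays gave, at 29 °C, 0 to 1 lower in larvae, 0 to 2 higher and 4 to 13 lower in prepupae, and 0 to 1 higher and 0 to 1 lower in pupae. At 19 °C it gave 0 to 1 lower in prepupae and 0 to 1 lower in pupae, and for the interaction 1 to 8 lower in prepupae and 0 to 1 lower in pupae. Apart from effects of scaling and of fewer arrays, the cause of these changes was not tested. Signals near the array median limit 18 of the 21 L genes, ND-B8 and UQCR-11.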

Other observations

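ATPsynG, COX6B and ND-AGGG were read only by probe sets that also name another gene, so their signals cannot be assigned to a single gene. In the eGFP line at 19 °C the probe set of ATPsynG had group means of 12.58 in larvae, 11.78 in prepupae and 11.31 in pupae. That of COX6B had 12.58, 12.11 and 11.79, and that of ND-AGGG 11.53, 10.49 and 10.45.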
